A study of Homo sapiens with 14 samples.

Results

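The SA2Q line of 293 Flip-In T-REx cells was compared with the line that holds an empty vector, called ctrl, by RNA sequencing of polyadenylated transcripts. The comparison took the 4 libraries of the SA2Q line, which are 2 without and 2 with a guide RNA (SA2Q and SA2Q+gRNA), against the 2 libraries of ctrl, so that 6 of the 14 libraries of the series were members. 293 Flip-In T-REx is a line derived from human embryonic kidney cells with a genomic site at which a transgene can be placed. By their labels, SA2Q cells carry the SNAP-ADAR2Q gene with the substitution E403Q, ctrl cells carry the empty vector, and all lines share the 293 Flip-In T-REx parent. The other 8 libraries, 2 each, come from SNAP-ADAR lines labelled SA1+gRNA, SA2+gRNA, SA1Q and SA1Q+gRNA, of which the last 2 groups carry the substitution E406Q. The series was designed around off-target editing and its design text speaks of 2 biologically independent experiments. The sources used here do not give the guide's target, whether the transgene was induced, or whether a line is 1 clone or a pool. Each side of the comparison is 1 line, so the transgene cannot be told apart from other differences between the 2 lines. The p-values below measure spread between libraries of a line, not between lines made separately.

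ADAR enzymes convert adenosine to inosine in double-stranded RNA, and inosine is read as guanosine. In a SNAP-ADAR the natural RNA-binding part is replaced by a SNAP tag, which forms a covalent bond with a guide RNA that carries benzylguanine, and the guide then brings the deaminase to a transcript. The glutamate-to-glutamine change of the Q forms raises the activity of the deaminase.

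The members held 45.2 and 55.1 M fragments in ctrl, 50.5 and 62.2 M in SA2Q, and 66.5 and 68.2 M in SA2Q+gRNA. Levels are given as CPM, which are fragment counts scaled to library size by TMM, and a gene was called when its adjusted p was under 0.05 in edgeR's quasi-likelihood test over 16418 genes (Benjamini-Hochberg). Every adjusted p below is from that test. A pair of libraries stood apart on the first principal component (24.7% of the variance), which placed ctrl replicate 1 at -39.65, SA1Q+gRNA replicate 1 at -43.91 and the other 12 libraries between 0.3 and 13.72. The ctrl replicates also differed more from each other than the replicates of the line, with an SD across genes of 0.289 for the log2 difference between replicates (CPM + 0.5) against 0.151 in SA2Q and 0.152 in SA2Q+gRNA. Every contrast with ctrl rests on those replicates, so the calls that change when a ctrl library is left out are named.

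The labelled cell type was checked with 12 markers of 293 cells, all of which passed the filter on low counts and none of which was called over all 14 libraries. Their summed level was 2017 and 2034 CPM in ctrl and 2026 to 2104 CPM in the line. The line held 964 to 1064 CPM of VIM, an intermediate filament gene, 308 to 331 CPM of the keratin gene KRT8 and 106 to 108 CPM of LIN28B, an RNA-binding protein of embryonic cells. NEFM, a neurofilament gene, was low at 0.92 to 1.47 CPM. PTPRC, which encodes the leukocyte antigen CD45, lay at 0.227 and 0.406 CPM in ctrl and 0.191 to 0.255 CPM in the line. Of the markers of other cells, 12 of 14 epithelial, 11 of 15 fibroblast and 7 of 14 blood cell genes passed the filter, and edgeR over all 14 libraries and limma-voom called none of them. With both libraries that stood apart left out, the median log2 change against ctrl was 0.125 for the 293 cell markers. In that fit it was -0.131 for epithelial, -0.0974 for fibroblast and 0.162 for blood cell genes. Over all 14 libraries 3 epithelial, 2 fibroblast and 0 blood cell genes had an unadjusted p under 0.05, as did 1987 of all 16418 genes tested. DESeq2 called 1 epithelial gene, ESRP2, an epithelial splicing factor, where it called 1.36% of all genes tested.

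ADARB1, the gene from which the deaminase part of SNAP-ADAR2 derives, separated the line from ctrl in every library (hg19, chromosome 21, 46494493 to 46646478, plus strand). The ctrl libraries held 29.3 and 37.2 CPM, the SA2Q libraries 1080 and 939 CPM, and the SA2Q+gRNA libraries 1160 and 1163 CPM. On the log2 scale this was a rise of 5.02 over ctrl (SE 0.12, adjusted p = 1.4e-12), or 32.5-fold, and in deposited FPKM, a level per transcript length, ADARB1 stood at 146 in the line and 4.47 in ctrl. Fragments of the transgene and of the gene's own transcript are counted together. ADAR, the other catalytically active editing enzyme, held 307 and 340 CPM in ctrl and 297 to 331 CPM in the line (log2 change -0.05, SE 0.08, adjusted p = 0.85). MGMT, the DNA repair gene from which the SNAP tag was engineered, held 17.3 and 17.7 CPM in ctrl and 16.4 to 21.1 CPM in the line (0.07, SE 0.12, adjusted p = 0.86). Whether fragments of the engineered tag were counted under MGMT was not tested, so its level does not measure the tag. Of the 9 tested genes of the editing enzyme list, ADARB1 alone was called, where 0.305% of all genes tested were called.

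Against ctrl, 50 genes were called in the SA2Q line, 30 higher and 20 lower, which is 0.305% of the genes tested (0.183% higher and 0.122% lower). Of these, 12 changed more than 2-fold and 26 more than 1.5-fold. In all 50 the 4 libraries of the line lay on 1 side of both ctrl libraries, while 24.1% of all genes tested had such a gap. The same libraries chose the 50 genes, so this gap is no separate support for the calls. At an unadjusted p under 0.05 there were 1987 genes, 12.1%. DESeq2 called 223 genes (1.36%) and limma-voom 24 (0.146%). With ctrl replicate 1 and SA1Q+gRNA replicate 1, the 2 libraries that stood apart, both left out, edgeR called 1036 (6.31%), all 50 among them; ctrl then rests on 1 library, assumed to vary like the other groups, so counts of list members in that fit are read against 6.31%. Without ctrl replicate 1 the count was 80, of which 20 were among the 50, and without ctrl replicate 2 it was 64, of which 22 were among them and 44 were lower. Leaving out SA2Q replicate 1 or SA2Q+gRNA replicate 1 gave 9 genes, and leaving out replicate 2 of either group gave 7.

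ADARB1, ZNF257, RYR2, ISL1, CHRDL1 and LOC100507412 were called in each of the 6 fits that left out 1 library of the comparison, and the other called genes lost the call in at least 1 of them. Without ctrl replicate 1, 30 of the 50 genes lost the call, with adjusted p of 0.051 to 0.15, and without ctrl replicate 2, 28 did, with the same range. The 17 that lost it in both fits were ACOXL, BOLA1, C2orf74, CD2BP2, CDC26, COL2A1, ETV5, FAM201A, GRIK3, MRAS, MYC, MYH3, NOS2, PTPRZ1, RPRM, SFRP1 and TNFRSF10D. Those lost only without ctrl replicate 1 included ABRACL, EDNRB, ERC1, GLA, MFAP2, PIEZO2, PIK3R2, PRXL2A, SNHG3, SPON1, TSPAN7 and TVP23A. Those lost only without ctrl replicate 2 were ADAMTS13, ASIC1, ATP5PF, C8orf48, FRG1, GALNS, KHK, PIEZO1, SALL3, TMCO4 and ZNF738. ADARB1, ZNF257, RYR2, ISL1 and CHRDL1 were also called in all 19 alternative settings. The 300-base promoter windows of ISL1, CHRDL1, RYR2 and ZNF257 are shown for that reason, ADARB1 being left aside as the source of the transgene. They run from 250 bases before to 50 after the RefSeq start (GRCh38.p14, coordinates not those of the hg19 files), at chr5:51383198-51383497 on the plus strand for ISL1, chrX:110795768-110796067 on the minus strand for CHRDL1, chr1:237041934-237042233 on the plus strand for RYR2 and chr19:22052234-22052533 on the plus strand for ZNF257. Each is written 5′ to 3′ along the gene's strand, and capitals mark CCAAT or its reverse complement ATTGG.
ISL1: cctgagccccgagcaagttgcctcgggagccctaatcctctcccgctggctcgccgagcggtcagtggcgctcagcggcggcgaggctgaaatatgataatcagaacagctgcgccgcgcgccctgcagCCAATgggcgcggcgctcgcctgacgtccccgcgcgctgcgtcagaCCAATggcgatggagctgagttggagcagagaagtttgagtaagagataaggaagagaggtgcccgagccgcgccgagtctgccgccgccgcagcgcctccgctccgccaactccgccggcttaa
CHRDL1: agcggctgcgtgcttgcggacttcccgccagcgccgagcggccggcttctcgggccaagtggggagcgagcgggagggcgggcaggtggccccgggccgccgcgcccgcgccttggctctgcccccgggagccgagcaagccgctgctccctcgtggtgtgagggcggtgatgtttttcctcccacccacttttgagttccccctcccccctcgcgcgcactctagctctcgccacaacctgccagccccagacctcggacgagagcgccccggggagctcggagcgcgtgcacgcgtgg
RYR2: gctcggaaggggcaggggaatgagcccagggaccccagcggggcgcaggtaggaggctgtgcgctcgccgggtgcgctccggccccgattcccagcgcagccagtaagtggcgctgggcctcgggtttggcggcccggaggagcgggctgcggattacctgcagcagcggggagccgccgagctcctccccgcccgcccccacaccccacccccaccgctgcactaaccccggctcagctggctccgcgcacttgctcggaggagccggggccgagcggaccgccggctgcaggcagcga
ZNF257: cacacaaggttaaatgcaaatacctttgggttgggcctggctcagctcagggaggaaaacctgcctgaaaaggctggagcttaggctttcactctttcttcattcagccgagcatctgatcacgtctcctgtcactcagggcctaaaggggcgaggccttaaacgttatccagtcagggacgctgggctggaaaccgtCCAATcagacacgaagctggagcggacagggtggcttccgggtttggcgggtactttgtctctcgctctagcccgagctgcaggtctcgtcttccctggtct
ISL1 held 2 such matches, ZNF257 held 1, and CHRDL1 and RYR2 held 0. None of the 4 windows held CACGTG, the E-box letters, or TATAAA on either strand. The CpG dinucleotides numbered 36 in ISL1, 36 in CHRDL1, 32 in RYR2 and 13 in ZNF257, with a GC content of 66.7%, 73.7%, 75.3% and 55.7%. A window was found for 35 of the 50 called genes, where the median was 30 CpG and 68.7% GC, against 25 and 64.7% over 12870 tested genes with a window. CCAAT, a motif chosen after the windows had been read, stood in 6 of the 35 (17.1%) against 36.3% of all. CACGTG stood in 3 (8.6%) against 9.7%, and TATAAA in 4 (11.4%) against 6.7%, counted on both strands. Matches of different motifs may share bases, and these counts carry no test.

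**Figure D1:**
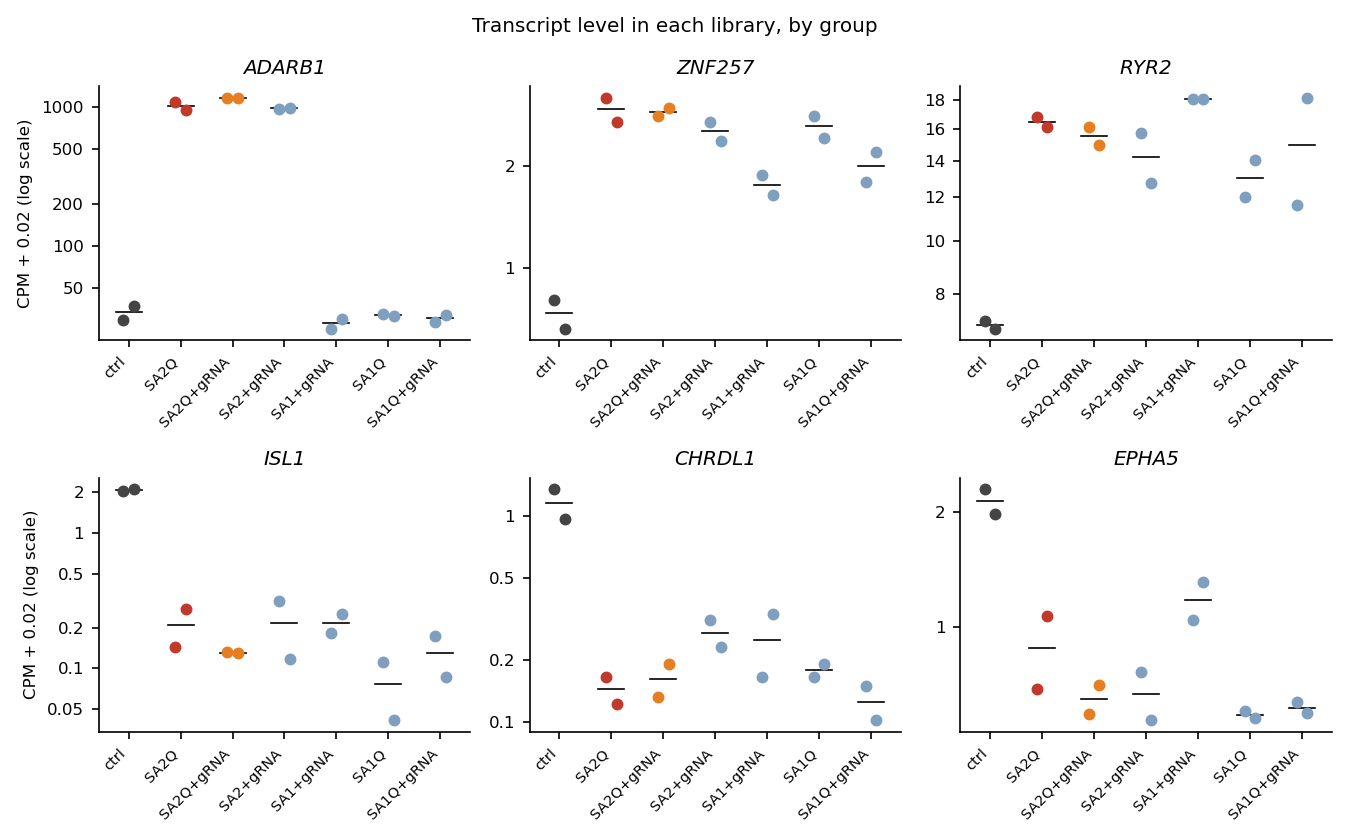
Level of 6 genes in each of the 14 libraries, by group (x axis), as CPM + 0.02 on a log axis; points are libraries and bars the mean of 2. The 4 libraries of the SA2Q line (red and orange) lie above both ctrl libraries (dark grey) for ADARB1, ZNF257 and RYR2 and below both for ISL1, CHRDL1 and EPHA5, and the other SNAP-ADAR lines are in blue.

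Among genes of transcription factors, ISL1 fell furthest. ISL1 encodes a LIM homeodomain factor of motor neuron, heart and pancreas development. Its level was 2.03 and 2.1 CPM in ctrl, 0.125 and 0.255 CPM in SA2Q, and 0.112 and 0.109 CPM in SA2Q+gRNA, a fall of 3.8 in log2 (SE 0.39, adjusted p = 0.00038). All 4 libraries of the line were thus well under both ctrl libraries, and SA2Q replicate 2 was the highest of the 4. The transcript lies opposite ISL1-DT, and the sources used here do not say whether counting used strand. SALL3, a zinc finger factor of the spalt family, held 1.84 and 2.31 CPM in ctrl and 0.773, 0.271, 1.08 and 0.437 CPM in the line (-1.75, SE 0.33, adjusted p = 0.041). The line's own libraries ranged widely, yet none reached the lower ctrl library. Without ctrl replicate 2 SALL3 was no longer called (adjusted p = 0.12). MYC, the growth-promoting factor, fell by 0.47 (SE 0.09, adjusted p = 0.046) from 145 and 139 CPM to 94.2 to 107 CPM, and ETV5, an ETS-family factor, rose by 0.55 (SE 0.11, adjusted p = 0.046) from 27.2 and 24 CPM to 35.6 to 38.9 CPM. Of 35 tested developmental transcription factors, ISL1 was the 1 called, where 0.305% of all genes tested were called. The list was chosen with earlier results of these data known. On it 14 genes lay above 0 and 21 below, and the median was -0.0586 against -0.00485 over all genes tested. SALL3 and ETV5 were not on that list. LHX1, another LIM homeodomain gene of that list, held 3.06 and 3.26 CPM in ctrl and 2.89 to 3.7 CPM in the line, and PAX6 held 19.8 and 21.8 against 19.4 to 22.7 CPM.

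Of 22 tested genes of the zinc finger cluster on the short arm of chromosome 19, 2 were called, ZNF257 and ZNF738, both higher. Of all genes tested, 0.183% were called higher. The list was chosen with earlier results of these data known, and its count of calls is no test of the cluster. ZNF257 (hg19, chromosome 19, 22235266 to 22273903, plus strand), a KRAB zinc finger gene, held 0.788 and 0.644 CPM in ctrl, 3.16 and 2.68 CPM in SA2Q, and 2.79 and 2.94 CPM in SA2Q+gRNA. It rose by 2.02 in log2 (SE 0.20, adjusted p = 0.00028), and the groups did not overlap. ZNF738, listed as a non-coding transcript in the same cluster, held 0.0955 and 0.0189 CPM in ctrl and 0.509 to 0.734 CPM in the line (adjusted p = 0.041); ctrl rested on a few fragments, so no fold is given, and it was not called without ctrl replicate 2 (adjusted p = 0.15). Members of this cluster are close in sequence, so fragments may be split between copies. Of the 22 genes, 9 lay above 0 and 13 below, and the median was -0.0488. ZNF43, a more abundant member, held 21.2 and 18.6 CPM in ctrl and 16.9 to 19.7 CPM in the line.

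The list of calcium channels and handling was chosen with earlier results of these data known, and its count of calls is no test. Of its 30 tested genes, 3 were called, all higher, where 0.183% of all genes tested were called higher. They were the calcium channel genes RYR2 and CACNA1H, and NOS2, which is no calcium channel. RYR2, the calcium release channel of the endoplasmic reticulum known from heart muscle, held 7.12 and 6.91 CPM in ctrl, 16.8 and 16.1 CPM in SA2Q, and 16.1 and 14.9 CPM in SA2Q+gRNA (1.19, SE 0.15, adjusted p = 0.0039). Every library of the line held more than 2-fold the level of either ctrl library. CACNA1H, a T-type calcium channel, held 11.2 and 11.4 CPM in ctrl and 18.2, 19.6, 17.1 and 16.5 CPM in the line (0.66, SE 0.09, adjusted p = 0.0068). NOS2, the calcium-independent nitric oxide synthase that the list holds beside its relatives, held 5.8 and 5.93 CPM in ctrl, 10.1 CPM in both SA2Q libraries, and 8.66 and 8.31 CPM in SA2Q+gRNA (0.66, SE 0.10, adjusted p = 0.016). NOS2 was not called without ctrl replicate 1 (adjusted p = 0.051) or without ctrl replicate 2 (0.053). The list as a whole had 11 genes above 0 and 19 below, with a median of -0.0468, which turned to 0.00846 when ctrl replicate 1 was left out and to 0.0445 when ctrl replicate 2 was.

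Receptors, ion channels and other surface proteins were called in both directions. GRIK3, a kainate-type glutamate receptor, rose by 0.88 (SE 0.17, adjusted p = 0.046), from 3.63 and 3.48 CPM in ctrl to 6.88, 6.94, 6.25 and 6.18 CPM. PTPRZ1, a receptor phosphatase of glial and neural precursor cells, held 1.0 and 1.5 CPM in ctrl and 3.3, 3.29, 2.81 and 3.03 CPM in the line (1.29, SE 0.24, adjusted p = 0.041). Neither gene was called when ctrl replicate 1 alone, or ctrl replicate 2 alone, was left out, fits in which ctrl rests on 1 library. EPHA5, an ephrin receptor of axon guidance, held 2.27 and 1.95 CPM in ctrl and 0.669, 1.05, 0.574 and 0.687 CPM in the line (-1.5, SE 0.22, adjusted p = 0.013). EDNRB, the endothelin receptor B gene, lay under 1 CPM throughout, at 0.979 and 0.549 CPM in ctrl and 0.0781 to 0.0957 CPM in the line (-3.11, SE 0.50, adjusted p = 0.016). EPHA5 and EDNRB each lie opposite an antisense gene.

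Both mechanically gated channel genes of the PIEZO family fell. PIEZO1 held 181 and 221 CPM in ctrl and 148, 145, 140 and 134 CPM in the line (-0.51, SE 0.09, adjusted p = 0.036), and it overlaps CTU2 on the other strand. PIEZO2 held 3.32 and 2.46 CPM in ctrl and 1.36, 1.99, 1.31 and 1.16 CPM in the line (-1.0, SE 0.18, adjusted p = 0.041). PIEZO1 was not called without ctrl replicate 2 (adjusted p = 0.12), nor PIEZO2 without ctrl replicate 1 (0.10). ASIC1, a proton-gated channel, fell by 0.40 (SE 0.07, adjusted p = 0.041), and TSPAN7, a tetraspanin, fell by 0.54 (SE 0.11, adjusted p = 0.046) from 27.2 and 21.4 CPM to 16.3 to 17.2 CPM. TNFRSF10D, a decoy receptor for the death ligand TRAIL, rose by 0.52 (SE 0.10, adjusted p = 0.046) from 87.5 and 82.1 CPM to 116 to 124 CPM.

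Called genes of secreted and matrix proteins, gathered here after they were called, lay in both directions. CHRDL1, a secreted antagonist of bone morphogenetic proteins (BMPs), held 1.34 and 0.947 CPM in ctrl, 0.146 and 0.102 CPM in SA2Q, and 0.112 and 0.172 CPM in SA2Q+gRNA (-3.09, SE 0.38, adjusted p = 0.0023). It was the 1 called gene of 35 tested in the BMP and TGF-beta list, where 0.305% of all genes tested were called. The median of that list was -0.0209. The BMP-responsive gene ID1 held 8.91 and 8.9 CPM in ctrl and 8.4 to 10.6 CPM in the line, and ID3 held 60.2 and 49.1 CPM against 49.4 to 60.4 CPM. MFAP2, a microfibril glycoprotein, rose by 1.25 (SE 0.19, adjusted p = 0.013), from 1.7 and 2.48 CPM to 5.31, 4.9, 4.61 and 5.31 CPM. Without ctrl replicate 1 its adjusted p was 0.054. COL2A1, the collagen of cartilage, rose by 0.48 (SE 0.09, adjusted p = 0.041) from 67.9 and 71.7 CPM to 91.9 to 105 CPM. SFRP1, a secreted Wnt antagonist, rose by 0.64 (SE 0.11, adjusted p = 0.04), and SPON1, a secreted adhesion protein, rose by 0.64 (SE 0.11, adjusted p = 0.033). ADAMTS13, the protease that cleaves von Willebrand factor, fell by 0.53 (SE 0.10, adjusted p = 0.041) from 10.4 and 12 CPM to 7.4 to 8.11 CPM. Of 34 tested matrix and microfibril genes, 2 were called, MFAP2 and PTPRZ1, of which limma-voom called 1. Of all genes tested, 0.305% were called, and the list was chosen with earlier results of these data known. The median of 0.0187 became -0.157 on leaving out ctrl replicate 1 and 0.207 on leaving out ctrl replicate 2, so its direction rested on the choice of ctrl library. With both apart libraries left out the median was again -0.157.

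**Figure D2:**
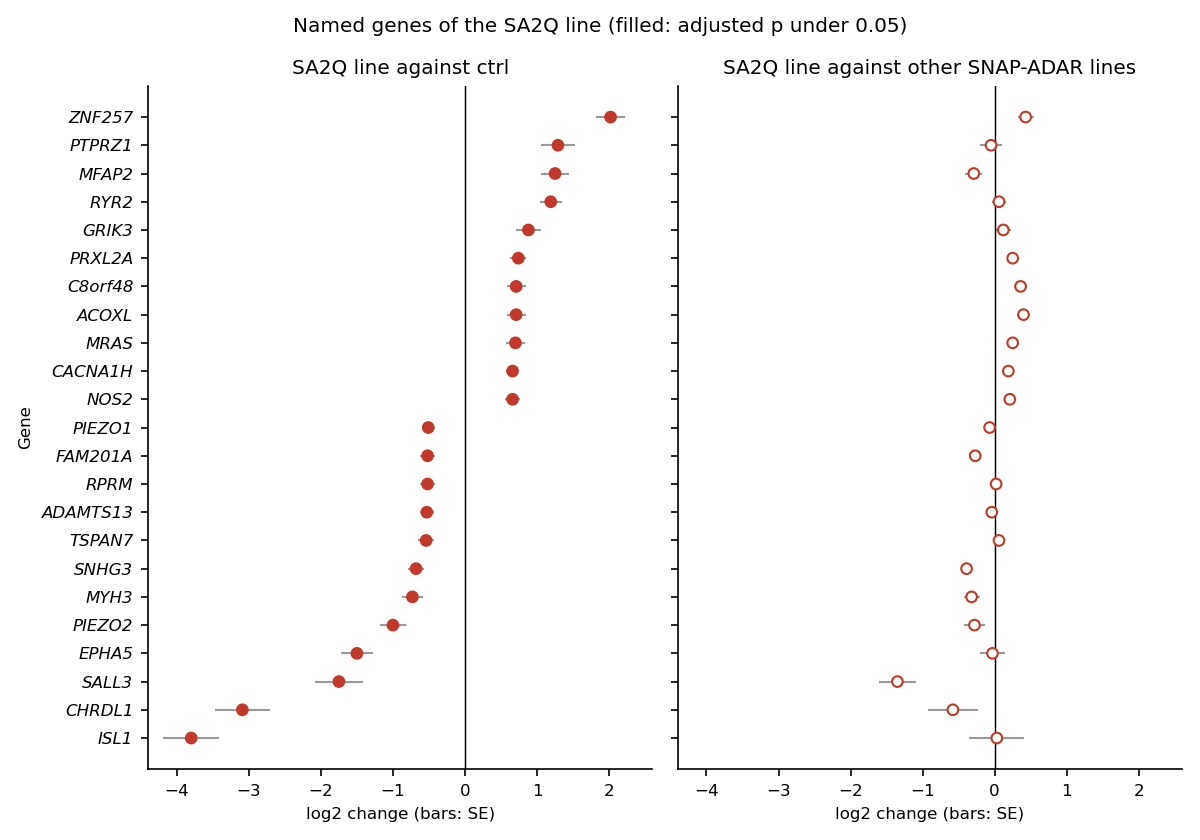
Log2 change with its SE for the 23 genes with the largest called rises and falls besides ADARB1, in the SA2Q line against ctrl (left) and against the other SNAP-ADAR lines (right); filled points have an adjusted p under 0.05. All points are filled on the left because being called there chose the genes, and none is filled on the right, where SALL3 at -1.35 lies furthest from 0.

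Of the remaining large changes, PRXL2A, a peroxiredoxin-like protein, rose by 0.74 (SE 0.11, adjusted p = 0.013) from 14.4 and 15.9 CPM to 24.1 to 26.9 CPM. MRAS, a RAS-related GTPase, rose by 0.70 (SE 0.13, adjusted p = 0.04), ACOXL, an acyl-CoA oxidase-like gene, by 0.71 (SE 0.13, adjusted p = 0.041), and C8orf48 by 0.71 (SE 0.13, adjusted p = 0.041). MYH3, the embryonic myosin heavy chain, fell by 0.73 (SE 0.15, adjusted p = 0.049) from 5.78 and 5.55 CPM to 2.92 to 3.92 CPM. RPRM, a mediator of cell cycle arrest, fell by 0.52 (SE 0.10, adjusted p = 0.041) from 31.4 and 30.3 CPM to 20.5 to 22.6 CPM. FAM201A, a non-coding RNA, fell by 0.52 (SE 0.10, adjusted p = 0.046). The lysosomal hydrolases GLA and GALNS fell by 0.40 (SE 0.08, adjusted p = 0.046) and 0.48 (SE 0.09, adjusted p = 0.041). Smaller rises were called for ATP5PF (0.33), FRG1 (0.37), CD2BP2 (0.39), CDC26 (0.43), ABRACL (0.47), ERC1 (0.48), BTG3 (0.50), C2orf74 (0.51), TMCO4 (0.54), BOLA1 (0.59) and TVP23A (0.64), and smaller falls for KHK (-0.45) and PIK3R2 (-0.42), genes named after their values were seen. LOC100507412, a transcript within the pre-ribosomal RNA locus RNA45SN5, held 11.4 and 43.8 CPM in ctrl and 4.02 to 4.18 CPM in the line (-2.76, SE 0.31, adjusted p = 0.0011), so that the ctrl libraries differed from each other by more than the lower one differed from the line.

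Host genes of small nucleolar RNAs (snoRNAs), which carry snoRNAs in their introns, had log2 changes below 0 in 18 of 19 tested members, with a median of -0.213, where 8406 of all 16418 genes were below 0. In 8 of the 19 all 4 libraries of the line lay below both ctrl libraries, as did 11.6% of all genes tested. Of the 19 genes 1 was called, SNHG3, where 0.305% of all genes tested were called. SNHG3 held 69.6 and 59.2 CPM in ctrl and 39.1, 36.2, 43.3 and 42.5 CPM in the line (-0.68, SE 0.11, adjusted p = 0.019). It lies within RCC1 on the same strand. A further 4 values show the list's spread. GAS5 held 138 and 109 CPM in ctrl and 76.4 to 103 CPM in the line (adjusted p = 0.054), and SNHG4 held 20.1 and 21.1 CPM against 13.6 to 15.4 CPM (adjusted p = 0.051). SNHG12 held 22.8 and 22.3 CPM against 14.2 to 20.1 CPM (adjusted p = 0.052), and SNHG29 held 441 and 309 CPM against 269 to 286 CPM (adjusted p = 0.088). An unadjusted p under 0.05 was reached by 10 of the 19, where 1987 of all 16418 genes reached it. DESeq2 called 7 and limma-voom 1, where they called 1.36% and 0.146% of all genes tested. With both apart libraries left out the median log2 change was -0.148. This list, too, was chosen with earlier results of these data known, and its counts are no test. The list summed to 1679 CPM in ctrl replicate 1, 1338 CPM in ctrl replicate 2 and 1140 to 1308 CPM in the line, and the median moved to -0.148 on leaving out ctrl replicate 1 and to -0.399 on leaving out ctrl replicate 2.

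No member of the lists on protein folding and stress was called by edgeR over all 14 libraries. Of all 16418 genes tested, 8012 lay above 0 and 8406 below, and 1987 had an unadjusted p under 0.05. DESeq2 called 1.36% of them and limma-voom 0.146%. With both apart libraries left out, the median log2 change was -0.0235 for the integrated stress response and 0.129 for the unfolded protein response. In that fit it was 0.0834 for heat shock genes and -0.0121 for oxidative and metal stress genes. The unfolded protein response had 21 of 24 genes above 0 (median 0.0804), 4 at an unadjusted p under 0.05, and 0 called by DESeq2 or limma-voom. Its chaperone gene HSPA5 held 446 and 450 CPM in ctrl and 473 to 535 CPM in the line (0.15, adjusted p = 0.48). DNAJB11, the member of that list with the smallest p, had a log2 change of 0.264 (SE 0.078, adjusted p = 0.18). Heat shock genes and chaperones had 15 of 18 above 0 (median 0.0816), 3 at an unadjusted p under 0.05 and 0 called by the other tools. The integrated stress response, which slows translation and induces amino acid genes, had 30 of 41 genes below 0 (median -0.0634), 9 at an unadjusted p under 0.05, 4 called by DESeq2 and 0 by limma-voom. ALDH1L2, a mitochondrial folate enzyme, held 1.79 and 3.41 CPM in ctrl and 4.65 to 6.06 CPM in the line (adjusted p = 0.051), and CHAC1, a glutathione-degrading enzyme, held 7.86 and 6.44 against 4.2 to 4.93 CPM (adjusted p = 0.07), so its leading members lay on opposite sides of ctrl. Of 15 oxidative and metal stress genes, 0 were called by the 3 tools and 3 had an unadjusted p under 0.05 (median -0.130).

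Sensors and targets of RNA editing gave no edgeR call over all 14 libraries either. With both apart libraries left out, the median log2 change was -0.182 for sensors, -0.0318 for interferon-stimulated genes and 0.0136 for edited transcripts. Of all 16418 genes tested, 1987 had an unadjusted p under 0.05, and the median over all 14 libraries was -0.00485. Unedited double-stranded RNA is known to trigger interferon through MDA5, the product of IFIH1. IFIH1 held 4.82 and 5.13 CPM in ctrl and 2.95 to 4.37 CPM in the line (adjusted p = 0.26). Of 17 tested RNA and DNA sensors 2, and of 35 tested interferon-stimulated genes 2, had an unadjusted p under 0.05, with medians of -0.0818 and -0.119 and 0 called by DESeq2 or limma-voom. The interferon-stimulated gene ISG15 held 6.07 and 5.26 CPM in ctrl and 4.75 to 6.06 CPM in the line. Log2 changes on its list ran from -2.32 to 0.29, and the members with the smallest p were IFI44L and SP110. Of 29 tested transcripts known to be edited, 14 lay above 0 and 15 below, 4 had an unadjusted p under 0.05, and 0 were called by the 3 tools. IGFBP7, one of them, held 4.13 and 3.96 CPM in ctrl and 5.36 to 5.61 CPM in the line (0.45, SE 0.14, adjusted p = 0.21). GRIA4, another, held 0.74 CPM in ctrl replicate 1 and 0.151 CPM in ctrl replicate 2, against 0.017 to 0.156 CPM in the line, so its difference rested on the ctrl library that stood apart. These are transcript levels, and editing itself was not analysed here.

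Of the lists on growth and metabolism, edgeR over all 14 libraries called 1 gene, MYC, where 0.305% of all genes tested were called. DESeq2 called 1.36% of all genes tested and limma-voom 0.146%, and 1987 of 16418 genes had an unadjusted p under 0.05. With both apart libraries left out, it called 16 of 37 oxidative phosphorylation genes, all higher, 11 of 54 ribosomal protein genes (10 higher), 8 of 31 immediate early genes (6 lower, FOS and EGR1 among them), 6 of 31 cholesterol and fatty acid genes (5 lower), 4 of 30 glycolysis and hypoxia genes, 3 of 23 p53 targets (higher, CDKN1A among them), 2 of 30 DNA replication genes and 1 of 30 mitosis genes, against 6.31% of all genes. The 54 tested ribosomal protein genes had a median of -0.0364, 0.124 when ctrl replicate 1 was left out and -0.191 when ctrl replicate 2 was, so their direction rested on the choice of ctrl library. edgeR and limma-voom called 0 of them, DESeq2 called 1, and 8 had an unadjusted p under 0.05. The sign of the median likewise turned between the ctrl libraries for oxidative phosphorylation (0.228 without ctrl replicate 1 and -0.118 without ctrl replicate 2, 0 of 37 called by edgeR or limma-voom, 3 by DESeq2, 6 at an unadjusted p under 0.05). Mitosis genes had 23 of 30 below 0 (median -0.0822), with 4 at an unadjusted p under 0.05 and 0 called by the 3 tools. DNA replication genes had 0 of 30 called by edgeR or limma-voom, 1 by DESeq2 and 4 at an unadjusted p under 0.05, with a median of -0.0561. Immediate early genes had MYC as the 1 called of 31, with a median of -0.0641 (0.028 when ctrl replicate 1 was left out and -0.114 when ctrl replicate 2 was), and EGR1, an early growth response factor, ranged from 69.3 to 144 CPM between the ctrl libraries alone. Of the p53 targets 0 of 23 (DESeq2 1, limma-voom 0, 3 at an unadjusted p under 0.05), of cholesterol and fatty acid genes 0 of 31 (0, 0 and 6), and of glycolysis and hypoxia genes 0 of 30 (1, 0 and 4) were called. Neuronal-lineage genes had 0 of 33 called (1 by DESeq2, 0 by limma-voom, 10 at an unadjusted p under 0.05), housekeeping genes 0 of 18 (0, 0 and 2) and nuclear-retained RNAs 0 of 9 (0, 0 and 0), and with both apart libraries left out 3, 3 and 0 were called in these lists.

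**Figure D3:**
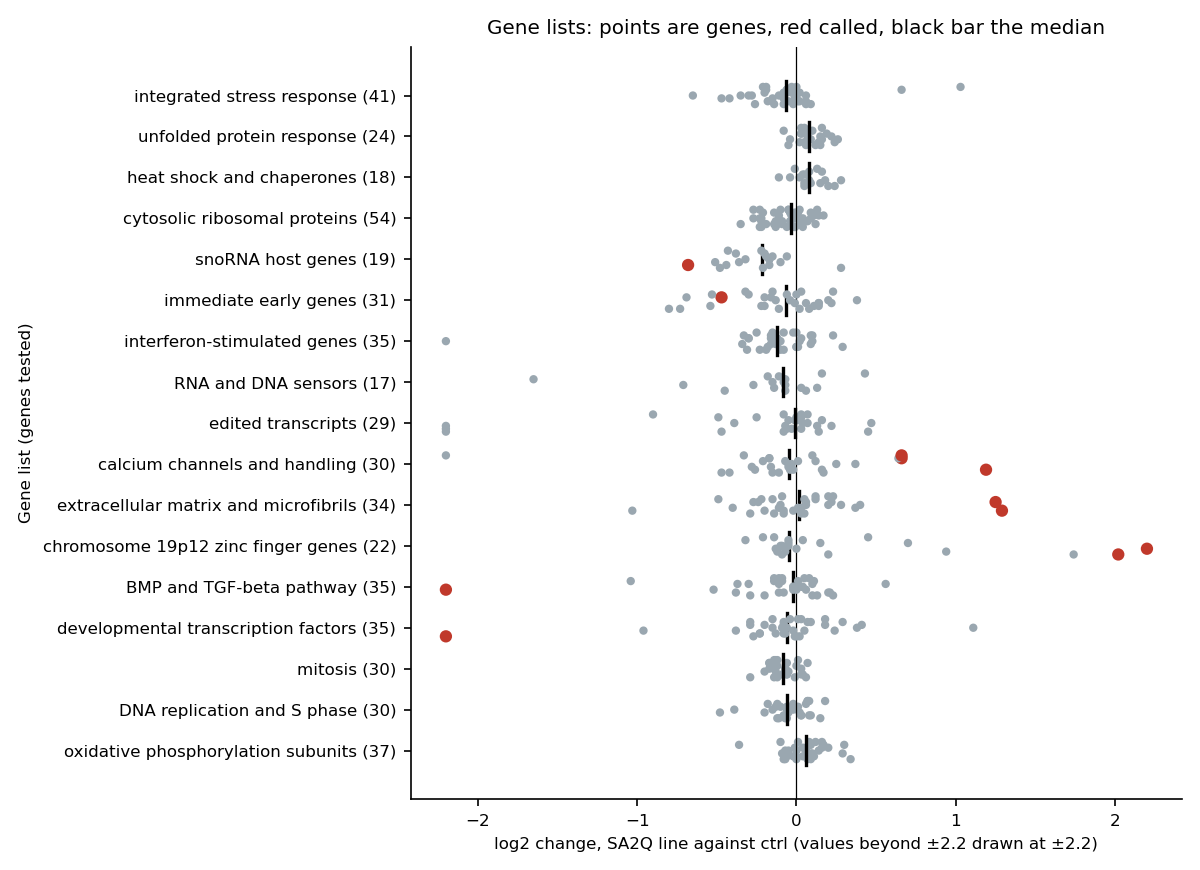
Log2 change in the SA2Q line against ctrl (x axis) for the tested genes of 17 lists (y axis, number of genes in brackets), with called genes in red, the others in grey and a black bar at the median; values beyond 2.2 are drawn at 2.2. At most 3 genes of a list are red, and the medians lie between -0.213 for snoRNA host genes and 0.0816 for heat shock genes.

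The SA2Q and SA2Q+gRNA groups were also compared with ctrl one by one, with the ctrl libraries shared. SA2Q had 14 called genes (0.0853% of those tested), 9 higher (0.0548%) and 5 lower (0.0305%). SA2Q+gRNA had 11 (0.067%), 7 higher (0.0426%) and 4 lower (0.0244%). Of the 18 genes called in either group, 17 were also among the 50 of the pooled comparison. For RYR2 the log2 changes were 1.23 in SA2Q (adjusted p = 0.012) and 1.15 in SA2Q+gRNA (adjusted p = 0.019). For ISL1 they were -3.4 (adjusted p = 0.012) and -4.2 (adjusted p = 0.0034). SNHG3 was called in SA2Q (-0.77, adjusted p = 0.042) and not in SA2Q+gRNA (-0.58, adjusted p = 0.14), and EPHA5 was called in SA2Q+gRNA (-1.73, adjusted p = 0.027) and not in SA2Q (-1.27, adjusted p = 0.11). Neither gene was called between the 2 groups. Between SA2Q+gRNA and SA2Q, edgeR, DESeq2 and limma-voom each called 0 genes (0.0%), and 291, 228 and 305 had an unadjusted p under 0.05, the first being 1.77% of the genes tested. Among the 50 genes called against ctrl, the largest log2 difference between the 2 groups was that of ISL1 at -0.80, and none of them was called.

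The SA2Q line was then set against the other SNAP-ADAR lines, a contrast without ctrl libraries, in which the SA1Q line, SA1+gRNA and SA2+gRNA had equal weight. It called 10 genes, 8 higher and 2 lower (0.0609%), of which 3 were also called against ctrl, ADARB1 and TMCO4 among them. The count was 4 without SA2Q replicate 2 or SA2Q+gRNA replicate 2, 5 without SA2Q replicate 1, and 19 without either ctrl library, which enter only the estimate of the spread. Of the genes with large changes against ctrl, ISL1, RYR2, CHRDL1 and ZNF257 had levels in the other lines that overlapped those of the SA2Q line. A contrast that was not called does not show equal levels. ISL1 ranged from 0.0215 to 0.293 CPM in the other 8 libraries with a median of 0.126 CPM, so it overlapped the SA2Q line (0.03, SE 0.38, adjusted p = 0.99). RYR2 ranged from 11.6 to 18.2 CPM (median 14.8), CHRDL1 from 0.0821 to 0.314 CPM (median 0.159), and ZNF257 from 1.62 to 2.79 CPM (median 2.27). Their contrasts were 0.06 (SE 0.10, adjusted p = 0.90), -0.58 (SE 0.35, adjusted p = 0.66) and 0.43 (SE 0.11, adjusted p = 0.22). PIEZO1 ranged from 127 to 166 CPM and PTPRZ1 from 1.65 to 5.75 CPM in the other lines, also around the SA2Q line. SALL3 was an exception in level, at 1.29 to 2.96 CPM (median 1.56) in the other lines, all above the SA2Q line, but its contrast of -1.35 (SE 0.26) had an adjusted p of 0.077.

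Besides ADARB1, NCAN and DCX, both known from developing brain, had the largest called log2 differences from the other lines. NCAN, a chondroitin sulfate proteoglycan, held 0.585, 0.441, 0.558 and 0.593 CPM in the SA2Q line and 1.22 to 9.41 CPM (median 4.36) in the other 8 libraries (-2.98, SE 0.23, adjusted p = 9.6e-06). It lay below all 8 of them, as did 0.749% of all genes tested. The ctrl libraries, at 0.334 and 0.473 CPM, were near the SA2Q line. DCX, a microtubule-binding protein of migrating neurons, held 0.69, 0.526, 0.861 and 0.344 CPM in the SA2Q line, 0.0955 and 0 CPM in ctrl, and 0 to 0.18 CPM (median 0.022) in the other lines (adjusted p = 0.002). It was thus highest in the 4 libraries of the SA2Q line, at a low level throughout, and it was not called against ctrl (adjusted p = 0.07).

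Smaller differences from the other lines were also called. Of the genes below, TSPO, OSGIN1, SCARA5 and CEBPE were not called against ctrl. TSPO, a cholesterol-binding protein of the outer mitochondrial membrane, held 22.5, 22.3, 19.1 and 22.5 CPM against 12.5 to 18.2 CPM (0.53, SE 0.08, adjusted p = 0.018). OSGIN1, an oxidative stress-induced growth inhibitor, held 2.19, 2.04, 2.46 and 2.26 CPM against 1.21 to 1.57 CPM (0.68, SE 0.12, adjusted p = 0.048), while ctrl held 2.39 and 2.16 CPM. TMCO4, a transmembrane protein gene, held 13.9, 13.9, 13.0 and 12.8 CPM against 8.58 to 11.7 CPM (0.36, SE 0.06, adjusted p = 0.048) and 9.41 and 9.03 CPM in ctrl. In these 3 genes the SA2Q line lay above all 8 other libraries, as did 0.804% of all genes tested. SCARA5, a scavenger receptor for ferritin, held 16.4 to 23.5 CPM against 9.57 to 17.6 CPM (0.67, SE 0.09, adjusted p = 0.0072), and CEBPE, a myeloid transcription factor, held 43.1 to 50.7 CPM against 23.6 to 43.8 CPM (0.48, SE 0.08, adjusted p = 0.048), both with overlap. ADARB1 was higher by 3.52 (SE 0.07, adjusted p = 4.2e-14) and ADAR lower by 1.4 (SE 0.06, adjusted p = 1.8e-09), the labels giving the other lines an ADAR1 or an ADAR2 transgene. Both are differences from a mean of lines, of which SA2+gRNA shares the ADARB1-derived transgene and the SA1 lines do not. They give the difference from no single line. The level of ADARB1 across the 14 libraries was most like that of TMCO4 (Pearson's r 0.888 on log2 CPM), RINL (0.883) and APOC1 (0.882), a description that rests on the 6 libraries with the ADARB1-derived transgene standing apart from the other 8.

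**Figure D4:**
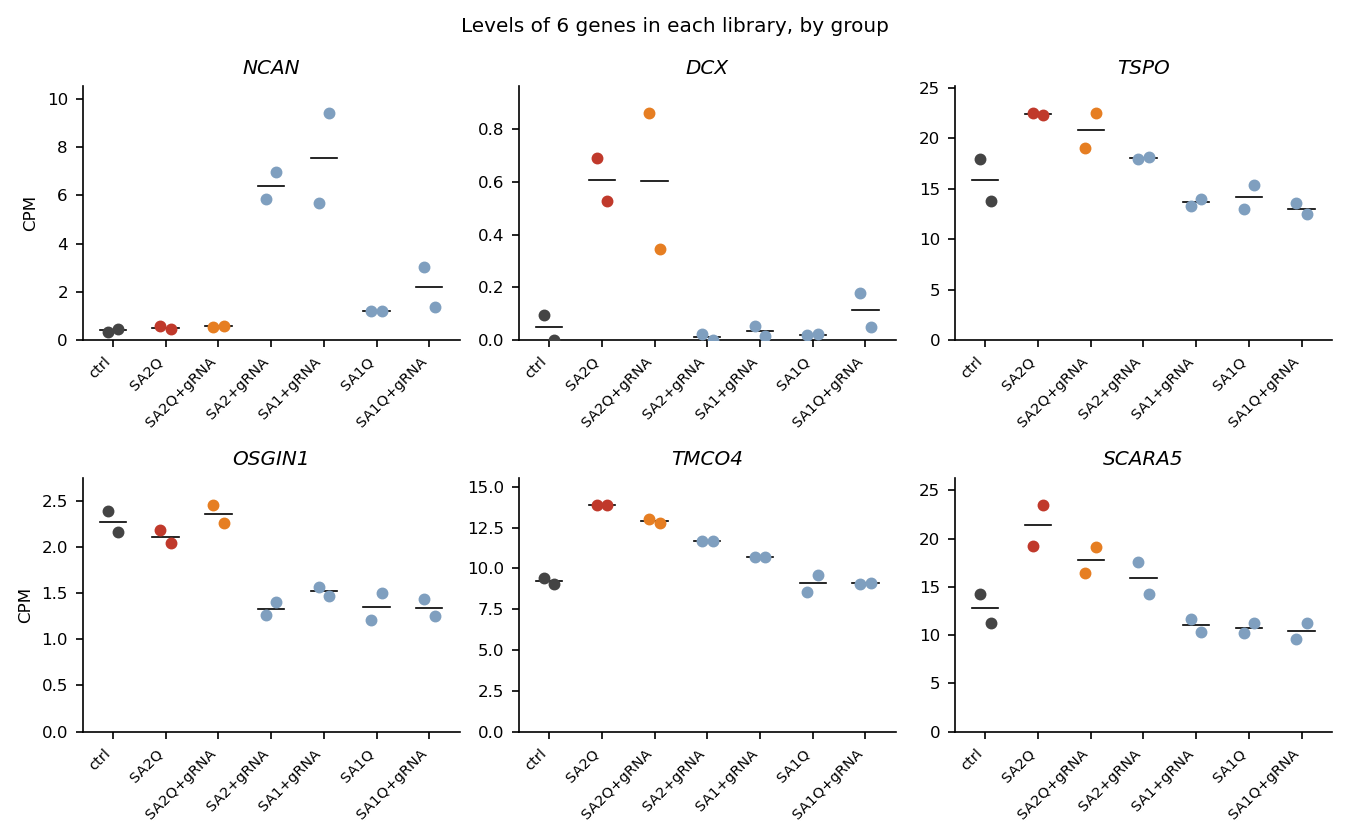
Level of 6 genes in each of the 14 libraries, by group (x axis), as CPM on a linear axis from 0; points are libraries and bars the mean of 2. The SA2Q line (red and orange) lies below all 8 libraries of the other SNAP-ADAR lines (blue) for NCAN and above all of them for DCX, TSPO, OSGIN1 and TMCO4, while SCARA5 overlaps them.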

How the data were processed

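Polyadenylated RNA of 14 libraries was sequenced as read pairs from a kit that keeps strand, per the labels' protocols. The submitters' processing notes name hg19 as the build, with STAR 2.4.2a and Trim Galore as tools. The counting tool and its use of strand were not given in the sources used here. The deposited count column held whole fragments per RefSeq transcript, not normalized, per the file headers. The deposited FPM column, a signal scaled to the library total, served to choose 1 transcript per gene, the one with the highest mean over the 14 libraries. The deposited FPKM column served for levels per length and in an alternative. Symbols came from a RefSeq table (GRCh38.p14, names only) and GENCODE, which named 98.58% of 45595 accessions. The 887 unnamed entries, with 0.808% of the counts, and 2309 entries under 200 nucleotides stayed out, leaving 22410 genes.

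The counts were tested with edgeR 4.0.16 (R 4.3.3; TMM, filterByExpr with a minimum count of 10, two-sided quasi-likelihood test) over all 14 libraries in 7 groups with no covariate, which gave 16418 genes, a common biological coefficient of variation of 8.67% and 7 residual degrees of freedom. Benjamini-Hochberg adjustment was made over all genes of a contrast, and the fit was tested on simulated data. Alternatives used DESeq2 1.42.0, limma 3.58.1, other scalings and filters, a replicate block, and fits with libraries left out. The fits with libraries left out keep the genes of the full fit, which was set after a first version that filtered anew had been seen. The members, gene lists and motifs were chosen with earlier results of these data known. Named against ctrl are ADARB1, ADAR, MGMT and the 12 largest called rises and falls with no overlap between groups and a mean of at least 1 CPM in the higher group, clone and LOC names left out. In the other contrasts the 4 largest each way are named, and so are the 3 genes most like ADARB1. Of each list, up to 4 called members, or else the 2 with the smallest p, were picked and count among the named genes. Not all of those picked from lists are given in the text. A gene that met these rules is not reported here. Genes beyond these, such as the remaining called genes and further list members whose levels are given, were chosen after their values were seen. Promoter windows are from RefSeq (GRCh38.p14), without chromosome 8. The replicate numbers were checked for pairing among ctrl, SA2Q and SA2Q+gRNA alone, where same-numbered libraries showed little correlation. The other groups were not part of this check, among them SA1Q+gRNA, whose replicate 1 stood apart together with ctrl replicate 1.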

Additional observations from a re-analysis of the deposited data

Results flagged for a closer look

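In 5 of the 76 named genes, 1 of the 4 libraries of the SA2Q line lay apart from the other 3 by more than Dixon's 95% critical value for 4 samples; chance alone gives about 1 in 20. ISL1 stood at 0.255 CPM in SA2Q replicate 2, still far under both ctrl libraries, and EPCAM, an epithelial adhesion gene, stood at 95.3 CPM in the same library. RINL, a RAB5 exchange factor-like gene, was lowest in SA2Q+gRNA replicate 1 at 9.78 CPM, and so was TSPO at 19.1 CPM. SLC7A2, an amino acid transporter gene, was lowest in SA2Q+gRNA replicate 2 at 85.1 CPM.

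A difference between the SA2Q line and the other SNAP-ADAR lines passed edgeR's test (adjusted p under 0.05) for 10 genes, of which 9 are given. On the log2 scale it was 4.54 for DCX (adjusted p = 0.002), which is close to 0 in the other lines, so that the fitted size depends on the prior count and is no bound. It was 3.52 for ADARB1 (4.2e-14), 0.68 for OSGIN1 (0.048), 0.67 for SCARA5 (0.0072), 0.53 for TSPO (0.018), 0.48 for CEBPE (0.048) and 0.36 for TMCO4 (0.048). It was -2.98 for NCAN (9.6e-06) and -1.4 for ADAR (1.8e-09). The values for ADARB1 and ADAR are set against a mean of lines with an ADAR1 and lines with an ADAR2 transgene.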

How the results depend on the processing

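The count of 50 genes called in the SA2Q line against ctrl became 223 with DESeq2, 24 with limma-voom, 145 with no filter on low counts, 12 with the 6 libraries of SA2Q, SA2Q+gRNA and ctrl alone, 87 with the line as a single group of 4, 379 with a length and GC offset and 77 with limma on log2(FPKM + 0.1). With ctrl replicate 1 and SA1Q+gRNA replicate 1 both left out it became 1036, and all 50 genes were among them. Leaving out 1 library each time gave 7 to 80, the lowest counts without SA2Q replicate 2 or SA2Q+gRNA replicate 2, and 9 without SA2Q replicate 1 or SA2Q+gRNA replicate 1; a lone library is then assumed to vary like the other groups. For SA2Q against ctrl the 14 genes became 91 with DESeq2, 8 with limma-voom, 41 with no filter, 570 with both apart libraries left out, 159 with the offset, 7 with log2(FPKM + 0.1), and 2 to 28 without 1 library. For SA2Q+gRNA against ctrl the 11 became 101, 7, 30, 855 and 125 under the first 5 of these, 4 with the 6 libraries alone, and 2 to 13 without 1 library. For the SA2Q line against the other SNAP-ADAR lines the 10 became 91 with DESeq2, 41 with no filter, 299 with both apart libraries left out, 129 with the offset, 6 with log2(FPKM + 1), and 4 to 19 without 1 library. The cause of these shifts was not tested. SA2Q+gRNA against SA2Q gave 0 in every setting run. The replicate block gave 26 genes for the SA2Q line against ctrl, of which 25 were among the 50. It gave 10 for SA2Q and 8 for SA2Q+gRNA against ctrl, 0 between these groups and 8 against the other SNAP-ADAR lines. Deviations of same-numbered libraries correlated at -0.052 (ctrl and SA2Q), -0.106 (ctrl and SA2Q+gRNA) and 0.032 (SA2Q and SA2Q+gRNA), so no pairing by number was seen among these groups. Pairing by number in the other groups, such as ctrl replicate 1 with SA1Q+gRNA replicate 1, was not tested.

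Signs turned for 4 named genes, none of them called against ctrl. Leaving out 1 library gave -0.123 to 0.023 for ADAR and 0.444 to -0.064 for CD68, the last of each without ctrl replicate 2. COL6A3 ran from -3.343 to 0.124, the last without ctrl replicate 1, and was 0.125 with both apart libraries left out. OSGIN1 ran from -0.099 to 0.049, the last without ctrl replicate 1, and was 0.049 with both apart libraries left out, 0.078 with the offset, 0.000 without SA2Q replicate 2 and 0.006 without SA2Q+gRNA replicate 2. SA1+gRNA replicate 2 holds only even counts, and halving them gave 53 genes for the line against ctrl.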
